A study of Mus musculus with 16 samples.

Results

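A set of 9 coagulation and fibrinolysis genes was followed in whole aortas of mice without apolipoprotein E (APOE-/-). They are F10, F7, F3, F5, F13a1, Thbd, Procr, Tfpi and Plat. Probe sets were chosen by the platform annotation, as those that gave exactly 1 of these 9 symbols, which was 16 of the 45101 on the array. All 9 genes had a probe set above the filter on low values and were tested, among 11036 genes in all. The 9 symbols themselves were proposed with signals of these arrays in view, among them the difference of F10 between diabetic and non-diabetic mice, and which other values weighed in that choice is not recorded. Fold changes and calls of the 9 genes are therefore a description of these arrays and not independent evidence.

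The 16 arrays came from 16 mice, in 4 groups of 4. The groups were diabetic mice given ruboxistaurin (RBX, or LY333531), diabetic mice without RBX, non-diabetic mice given RBX, and non-diabetic mice without RBX. All mice lacked apolipoprotein E, a lipoprotein ligand whose loss leads to atherosclerosis, were 18 weeks old and had eaten a high fat diet for 10 weeks from 8 weeks of age. Diabetes had been induced at 6 weeks of age with streptozotocin (STZ), a toxin of pancreatic beta cells. RBX inhibits protein kinase C beta and was mixed into the diet, and its dose is not stated in the labels. Every mouse thus carried the same gene defect and ate the same fat-rich diet.

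Clotting starts when tissue factor, the product of F3, meets factor VII, the product of F7, at an injured vessel. The complex activates factor X, which with its cofactor factor V makes thrombin, and factor XIII then cross-links the fibrin that thrombin forms. The liver makes most circulating factor VII and factor X, while macrophages are a main source of the factor XIII A chain encoded by F13a1. Endothelial cells hold the system in check through thrombomodulin (Thbd) and the protein C receptor (Procr), which together activate protein C, through tissue factor pathway inhibitor (Tfpi), and through tissue plasminogen activator (Plat), which starts the digestion of fibrin.

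F7 and F10 are neighbours on chromosome 8 in the RefSeq annotation of GRCm38.p6. F7 lies at chr8:13025506-13035809 and F10 at chr8:13037308-13056676, with 1498 bases between them. Both start windows are shown because the signals of this neighbouring pair were the most changed of the 9 genes after RBX in non-diabetic mice. RefSeq held windows of 250 bases before to 50 bases after a transcript start for 7 of the 9 genes, and for Thbd and Plat no window is shown. The windows of F7 (chr8:13025784-13026083, plus strand) and F10 (chr8:13037058-13037357, plus strand) follow 5′ to 3′, and the capitals mark a match to the hexamer AGGTCA or its reverse complement TGACCT.
F7: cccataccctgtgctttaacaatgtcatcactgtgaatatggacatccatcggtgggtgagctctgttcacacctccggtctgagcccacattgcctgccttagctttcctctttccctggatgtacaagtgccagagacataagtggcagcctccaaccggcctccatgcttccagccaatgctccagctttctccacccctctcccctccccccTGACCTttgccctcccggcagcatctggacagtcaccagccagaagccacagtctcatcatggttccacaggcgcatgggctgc
F10: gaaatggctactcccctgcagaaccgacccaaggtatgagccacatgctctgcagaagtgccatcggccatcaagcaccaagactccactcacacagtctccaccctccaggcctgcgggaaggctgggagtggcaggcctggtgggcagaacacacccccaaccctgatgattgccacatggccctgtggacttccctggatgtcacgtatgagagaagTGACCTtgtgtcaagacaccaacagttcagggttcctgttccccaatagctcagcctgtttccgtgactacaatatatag
The hexamer is a core element of the binding sites of many nuclear receptors. It was searched on both strands, as were 3 other hexamers, none of which overlapped it in these windows. It began at position -34 from the transcript start in F7 and at -30 in F10, on the minus strand in both. The F7 window lies inside the F7 gene as given above, so its transcript start is not the first base of that gene. The hexamer was found in 5 of the 9 windows of the members, and in 16.3% of 32851 windows of all genes. The 9 windows came from 7 genes, as Tfpi and F13a1 had more than 1 window each. GAGGAA, the core of ETS family sites, was found in 5 of the 9 windows, against 28.3% of all windows. GGGCGG, the box bound by SP1, was found in 4, against 35.7%. AGATAA was found in 1, against 11.2%. Such matches are a description of the letters in these windows.

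Marker genes of several cell types were read against the filter, which cannot by itself identify the tissue. All 3 brown fat markers and 3 of the 4 white fat markers measured also lay above it. All 7 smooth muscle markers, all 8 endothelial markers, all 8 macrophage markers and all 6 fibroblast markers listed had a probe set above the filter. Of the 7 hepatocyte markers measured, Alb, Apoa1, Apoa2, Ttr, Apoh and Fgb lay below the filter and only Trf lay above it. The 4 arrays of non-diabetic mice given RBX were set off from the other 12. Along the leading principal component (30.2% of the variance) they lay between 21.7 and 51.8, against -28.9 to -11.8 in non-diabetic mice, and the 8 diabetic arrays lay between -10.7 and 4.28. The log2 signal of the cre control, a bacteriophage transcript added to every hybridisation, averaged 17.68 ± 0.05 in diabetic RBX, 17.47 ± 0.20 in diabetic, 18.36 ± 0.37 in non-diabetic RBX and 17.10 ± 0.34 in non-diabetic mice (SD, n = 4 each). For Actb, the log2 ratio between its 3′ and 5′ control probe sets, which grows as RNA breaks down or labelling shortens, averaged 1.71 ± 0.18, 1.34 ± 0.17, 2.08 ± 0.39 and 1.04 ± 0.20 in the same order. Both array measures thus had their highest group mean in non-diabetic RBX mice and their lowest in non-diabetic mice. Between these groups the cre signal did not overlap (17.96 to 18.82 against 16.85 to 17.58). Nor did the Actb ratio (1.67 to 2.51 against 0.85 to 1.32). The same ratio for Gapdh did overlap (0.12 to 0.52 against 0.003 to 0.25), and its highest group mean, 0.39, was in diabetic RBX mice. RBX therefore cannot be told apart from the cre signal and the Actb ratio in non-diabetic mice. Under RBX, the cre signal of diabetic mice (17.62 to 17.72) lay below that of non-diabetic mice (17.96 to 18.82), so diabetes and cre cannot be told apart there. Fits with the cre signal or the Actb ratio as a covariate are given beside the genes called for RBX in non-diabetic mice.

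F10, encoding factor X, was higher in diabetic than in non-diabetic aortas, and higher in non-diabetic mice given RBX than in those without it. The signal of its brightest probe set, 1449305_at, was 641.9, 1178.6, 720.9 and 681.9 in diabetic RBX mice and 879.5, 950.2, 883.5 and 1871.5 in diabetic mice. It was 828.3, 1206.7, 2230.7 and 2311.2 in non-diabetic RBX mice and 436.4, 343, 497.5 and 262.2 in non-diabetic mice. Every mouse of the other 3 groups lay above every non-diabetic mouse, and the other 3 groups overlapped each other. The non-diabetic mean, 385 ± 104 (SD, n = 4), lay at the filter on low values, a signal of 383, so F10 passed the filter through the groups where it was high. Without RBX, diabetes went with a log2 fold change of 1.54 (SE 0.33, limma with Benjamini-Hochberg, adjusted p = 0.0414). F10 was the only one of the 9 genes called in that comparison, where 0.652% of all genes tested were called. The call was close to the threshold: it was lost, with an adjusted p of 0.0523 to 0.132, when non-diabetic mouse 1, 2 or 4, diabetic mouse 2, 3 or 4, or diabetic RBX mouse 1, 3 or 4 was left out. The fold change without each mouse in turn stayed between 1.27 and 1.67.

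RBX in non-diabetic mice went with a log2 fold change of 2.01 for F10 (SE 0.33, limma, adjusted p = 0.000235). This difference passed without each of the 16 mice in turn (1.81 to 2.30). The comparison called 5 of the 9 genes, all of them higher, where 31.7% of all genes tested were called and 16.5% were called as higher. Groups did not overlap for 4 of the 9 genes, against 27.5% of all genes. In diabetic mice, RBX went with a log2 fold change of -0.47 for F10 (SE 0.33, limma, adjusted p = 0.708), which did not pass. The interaction of diabetes and RBX for F10 was -2.48 on the log2 scale (SE 0.47, limma, adjusted p = 0.00296). It contains the difference of F10 between diabetic and non-diabetic mice that was known when the genes were chosen, so it too is a description. With the cre signal as a covariate the F10 difference for RBX in non-diabetic mice was 0.95 (SE 0.67, limma, adjusted p = 0.58), the interaction was -1.60 (SE 0.67, limma, adjusted p = 0.347), and the difference for diabetes was 1.22 (SE 0.36, limma, adjusted p = 0.259). None of the 3 passed, and the cause of these changes was not tested. With the Actb ratio as a covariate the difference for RBX in non-diabetic mice was 1.55 (SE 0.65, limma, adjusted p = 0.222).

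F10 had 2 more probe sets, both below the filter on low values and so read as weak signals. 1418993_s_at had 574.5, 443.6, 430 and 528.4 in diabetic RBX mice, 409.4, 331.5, 359.3 and 550.2 in diabetic mice, 734.7, 137.5, 914.9 and 310.4 in non-diabetic RBX mice, and 46.6, 31.2, 33.8 and 181.2 in non-diabetic mice. All 8 diabetic mice lay above all 4 non-diabetic mice on this probe set as well, whereas non-diabetic RBX mouse 2 fell within the non-diabetic range. In a fit of all probe sets, its log2 fold changes were 2.89 (SE 0.60, limma, adjusted p = 0.0523) for diabetes without RBX and 2.91 (SE 0.60, limma, adjusted p = 0.00244) for RBX in non-diabetic mice. That fit called 0.147% and 12.5% of probe sets in these comparisons. For RBX in diabetic mice this probe set gave 0.28 (SE 0.60, limma, adjusted p = 0.951), against the -0.47 of 1449305_at. 1418992_at was dimmer and scattered more, and gave 2.53 (SE 1.01) for diabetes without RBX and 0.87 (SE 1.01) for RBX in non-diabetic mice.

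F7, encoding factor VII, had the same order of groups as F10. Its probe set 1419321_at had 2100.5, 1599.1, 1939.5 and 2881 in diabetic RBX mice and 2194.8, 2455.1, 3433.6 and 5360.2 in diabetic mice. It had 2287.6, 3472.7, 5090.4 and 5926.1 in non-diabetic RBX mice and 880.6, 1029.5, 2384.2 and 1296.1 in non-diabetic mice. Non-diabetic mouse 3 reached the range of the other groups, so no pair of neighbouring groups was fully apart. RBX in non-diabetic mice went with a log2 fold change of 1.60 for F7 (SE 0.33, limma, adjusted p = 0.00143). For diabetes without RBX the log2 fold change was 1.29 (SE 0.33, limma, adjusted p = 0.0694), which did not pass. It passed without non-diabetic mouse 3, diabetic mouse 1 or non-diabetic RBX mouse 1 or 4, with an adjusted p of 0.0145 to 0.0476. With the replicate number as a block it passed as well (SE 0.22, limma, adjusted p = 0.00964), where 1.54% of all genes were called. In diabetic mice RBX went with -0.60 (SE 0.33, limma, adjusted p = 0.593), and the interaction was -2.21 (SE 0.47, limma, adjusted p = 0.00575). With the cre covariate the difference for RBX in non-diabetic mice was 0.11 (SE 0.60, limma, adjusted p = 0.969), and with the Actb ratio it was 1.28 (SE 0.65, limma, adjusted p = 0.315).

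**Figure D1:**
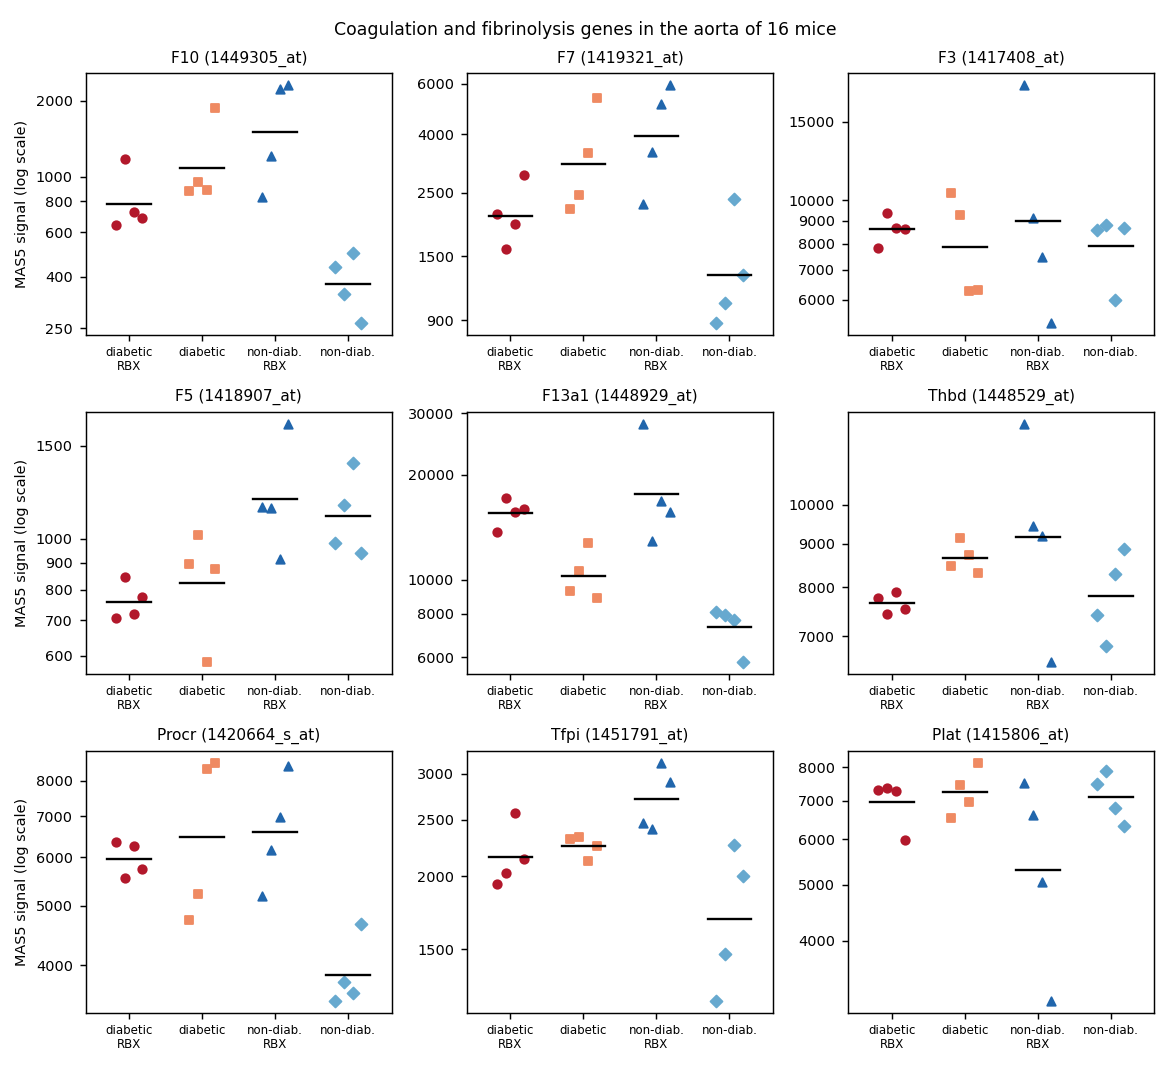
MAS5 signal (vertical, log scale) of the probe set used for each of the 9 genes in 4 groups of 4 mice; each point is 1 mouse, and the bar is the mean of the log2 signals. F10, F13a1, Procr and Tfpi of non-diabetic RBX mice lie wholly above those of non-diabetic mice, while F3, F5, Thbd and Plat overlap between these groups.

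F13a1, encoding the A chain of the fibrin-stabilising factor XIII, was higher after RBX in non-diabetic mice, and its groups overlapped little. Its signal was 13722.6, 17123.3, 15625.1 and 15952.9 in diabetic RBX mice and 9300.9, 10589.1, 12795.6 and 8903.2 in diabetic mice. It was 27978.9, 12962.1, 16864.3 and 15650.1 in non-diabetic RBX mice and 8104.2, 7943.9, 7652.7 and 5826.4 in non-diabetic mice. Both groups given RBX lay above their untreated counterparts with no overlap, and diabetic mice lay above non-diabetic mice with no overlap. RBX in non-diabetic mice went with a log2 fold change of 1.26 for F13a1 (SE 0.18, limma, adjusted p = 6.83e-05). In diabetic mice the difference was 0.60 (SE 0.18, limma, adjusted p = 0.296), in a comparison where 0.0453% of all genes were called and no member was. Groups did not overlap there for 2 of the 9 genes, F13a1 and Thbd, against 6.89% of all genes. For diabetes without RBX the difference was 0.49 (SE 0.18, limma, adjusted p = 0.193).

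With the cre covariate its difference for RBX in non-diabetic mice was 1.57 (SE 0.39, limma, adjusted p = 0.0925), no smaller than without it, though it no longer passed. With the Actb ratio as a covariate it was 1.59 (SE 0.35, limma, adjusted p = 0.0391), the only one of the 5 calls that passed in that fit. With both covariates it was 1.65 (SE 0.41, limma, adjusted p = 0.112). The interaction for F13a1 was -0.67 (SE 0.26, limma, adjusted p = 0.0959) and did not pass, but did so without non-diabetic RBX mouse 2 (-0.82, adjusted p = 0.036).

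F3 and F5, the tissue factor that starts clotting and the cofactor of factor X, were not called in any of the 5 comparisons. F3 averaged 8632 ± 635 in diabetic RBX, 8063 ± 2103 in diabetic, 9997 ± 5614 in non-diabetic RBX and 8020 ± 1362 in non-diabetic mice (SD, n = 4 each). Non-diabetic RBX mouse 1, at 18089.9, was the highest of the 16 mice and non-diabetic RBX mouse 4, at 5325.4, the lowest, so this group spanned all the others. F5 had 708.1, 844.5, 720.3 and 775.6 in diabetic RBX mice, 896.5, 1015.9, 584.4 and 875.1 in diabetic mice, 1150.9, 1143.5, 916.9 and 1650.5 in non-diabetic RBX mice, and 981.8, 1161.2, 1393.9 and 937.8 in non-diabetic mice. Under RBX, every diabetic mouse lay below every non-diabetic mouse for F5, the 1 member of 9 with no overlap in that comparison, against 12.5% of all genes. The log2 difference was -0.64 (SE 0.21, limma, adjusted p = 0.0664), which did not pass but did so without non-diabetic RBX mouse 3 (-0.77, adjusted p = 0.0338). The other F5 probe set, 1449269_at, gave -0.61 (SE 0.36) in the same comparison.

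Procr, the endothelial receptor that presents protein C to thrombomodulin, was higher in every mouse of the other 3 groups than in any non-diabetic mouse. It had 6353, 5546.2, 6272.7 and 5750.1 in diabetic RBX mice, 4735, 5220.1, 8369.4 and 8562.6 in diabetic mice, 5178.2, 6177.3, 6972 and 8472.8 in non-diabetic RBX mice, and 3498.2, 3755.9, 3597.2 and 4667.9 in non-diabetic mice. Diabetic mice fell into a low and a high pair, and the lowest diabetic mouse lay just above the highest non-diabetic mouse. RBX in non-diabetic mice went with a log2 difference of 0.77 for Procr (SE 0.18, limma, adjusted p = 0.00338). That difference was 0.55 (SE 0.39, limma, adjusted p = 0.579) with the cre covariate and 0.91 (SE 0.36, limma, adjusted p = 0.187) with the Actb ratio. Diabetes without RBX went with 0.75 (SE 0.18, limma, adjusted p = 0.0584), which did not pass. It passed without diabetic mouse 1 or non-diabetic RBX mouse 1 or 4 (adjusted p of 0.0209 to 0.0447). With the replicate number as a block it passed as well (SE 0.14, limma, adjusted p = 0.0183). Procr, F13a1 and F10 were the 3 genes whose groups did not overlap in that comparison, against 9.45% of all genes. The interaction was -0.89 (SE 0.25, limma, adjusted p = 0.03), in a comparison where 11.5% of all genes were called and 5.5% were called as lower, against 4 of the 9 members, all lower. It was lost without non-diabetic mouse 1 or 2, non-diabetic RBX mouse 4, diabetic mouse 3 or 4, or diabetic RBX mouse 2 (-0.88 to -0.76, adjusted p of 0.0543 to 0.0722).

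Tfpi, the inhibitor of the tissue factor and factor VII complex, gave a result that depended on the probe set. On 1451791_at the signal was 1944, 2024.4, 2564.7 and 2141.2 in diabetic RBX mice, 2321.6, 2338.7, 2123.7 and 2258 in diabetic mice, 2473.2, 2414.8, 3128.6 and 2896.4 in non-diabetic RBX mice, and 1226.1, 1471.1, 2266.9 and 2003.2 in non-diabetic mice. The non-diabetic RBX mice lay above all diabetic mice without RBX and all non-diabetic mice. RBX in non-diabetic mice went with a log2 difference of 0.68 on this probe set (SE 0.16, limma, adjusted p = 0.00421). The other 3 probe sets of Tfpi gave 0.12 to 0.21 in that comparison, and the mean over the 4 gave 0.28 (SE 0.12, limma, adjusted p = 0.106). With the cre covariate the difference was -0.03 (SE 0.30, limma, adjusted p = 0.986), and with the Actb ratio it was 0.46 (SE 0.32, limma, adjusted p = 0.469). The interaction, -0.75 (SE 0.23, limma, adjusted p = 0.0426), was lost when any 1 of 11 mice was left out, namely non-diabetic mouse 1 or 2, non-diabetic RBX mouse 3 or 4, any diabetic mouse, or diabetic RBX mouse 1, 2 or 4 (-0.78 to -0.59, adjusted p of 0.0558 to 0.0888). The other 3 probe sets gave an interaction of -0.55 to -0.06, and the mean over the 4 gave -0.43 (SE 0.17, limma, adjusted p = 0.132), which did not pass.

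Thbd and Plat, the thrombin receptor that switches thrombin towards protein C and the main plasminogen activator of blood, were not called in any comparison. Thbd had 7756.1, 7433.8, 7890.7 and 7534.5 in diabetic RBX mice, against 8475.8, 9138.7, 8729.3 and 8314.4 in diabetic mice. These groups did not overlap, with a log2 difference of -0.18 (SE 0.14, limma, adjusted p = 0.733). Thbd ranged from 6530.9 to 12454.3 in non-diabetic RBX mice and from 6811.3 to 8876.8 in non-diabetic mice. The lowest Thbd value was that of non-diabetic RBX mouse 4, and without it Thbd passed for RBX in non-diabetic mice (0.40, limma, adjusted p = 0.0137), diabetes under RBX (-0.42, limma, adjusted p = 0.0353) and the interaction (-0.57, limma, adjusted p = 0.0231). Plat ranged from 5986.1 to 7360.8 in diabetic RBX, from 6525.4 to 8142.7 in diabetic, from 3148.5 to 7504 in non-diabetic RBX and from 6323.5 to 7873.9 in non-diabetic mice. Plat was the only one of the 9 genes with a negative difference for RBX in non-diabetic mice, -0.42 (SE 0.19, limma, adjusted p = 0.0939), and it passed without non-diabetic RBX mouse 1 (-0.59, adjusted p = 0.0187).

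**Figure D2:**
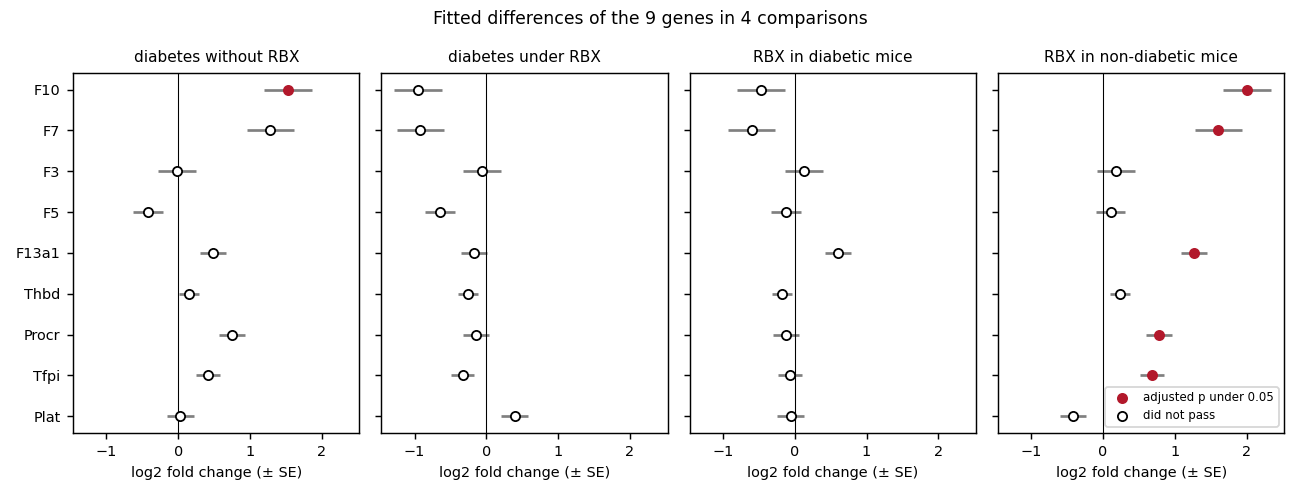
Fitted log2 fold changes (horizontal, with SE) of the 9 genes in 4 comparisons, with filled points at an adjusted p under 0.05. F10 is filled for diabetes without RBX, and F10, F7, F13a1, Procr and Tfpi for RBX in non-diabetic mice; no gene is filled in the other panels.

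Across the 9 genes, the median log2 difference for RBX in non-diabetic mice was 0.68, with 8 of 9 above 0, against a median of 0.03 over all genes tested. For diabetes without RBX the median was 0.42, with 7 of 9 above 0, against 0.01 over all genes. Both comparisons use the same 4 non-diabetic arrays, so a low reading of a gene in those mice raises both differences at the same time. Under RBX, diabetes went with a median of -0.26, with 1 of 9 above 0, against -0.04 over all genes. No member was called there, and 7.1% of all genes were. In limma 4 of the 9 reached an unadjusted p under 0.05, against 24% of all genes. F10 (-0.95, SE 0.33, limma, adjusted p = 0.0908) and F7 (-0.92, SE 0.33, limma, adjusted p = 0.0965) had the most negative values, and without non-diabetic RBX mouse 1 both passed (-1.24, adjusted p = 0.0253, and -1.18, adjusted p = 0.0333). For RBX in diabetic mice the median was -0.12, with 2 of 9 above 0, and 1 member, F13a1, reached an unadjusted p under 0.05 in limma, against 9.19% of all genes.

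Over the 7 probe sets of these genes that were not used in the fit, 27 of 35 differences had the sign of the probe set used. In the plot of all probe sets, the probe sets of F10 lay on the same side of 0 in both comparisons shown, and the Tfpi probe sets differed in size.

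**Figure D3:**
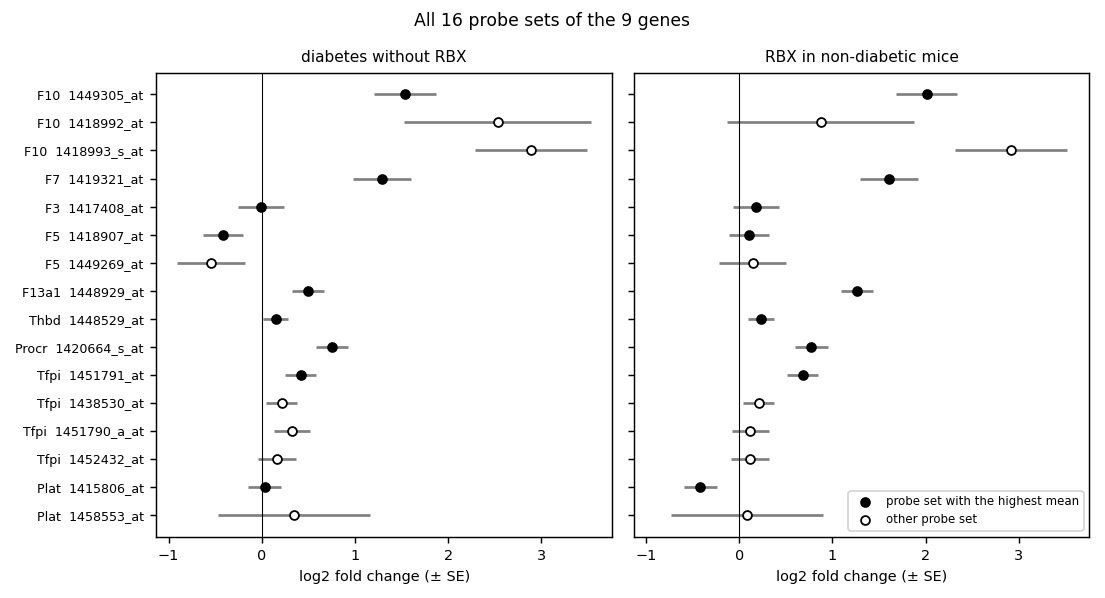
Log2 fold changes (horizontal, with SE) of all 16 probe sets of the 9 genes for diabetes without RBX and for RBX in non-diabetic mice; filled points are the probe set with the highest mean of each gene. The 3 probe sets of F10 are above 0 in both panels, and the open Tfpi points for RBX lie between 0.12 and 0.21, against 0.68 for the filled one.

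The rest of the pathway was read from a list of 45 other coagulation and fibrinolysis genes, of which 17 were tested. The other 28, among them F2, F8, F9, Fga, Fgb, Fgg, Plg, Proc, Serpinc1 and Plau, had no probe set of their own above the filter. For RBX in non-diabetic mice 8 of the 17 were called, 5 higher and 3 lower, against 31.7% of all genes, with a median over the list of 0.01. None of the 8 was called with the cre signal or the Actb ratio as a covariate. Vwf, the endothelial factor that tethers platelets, averaged 29382 ± 8536 in non-diabetic RBX and 17544 ± 1184 in non-diabetic mice (SD, n = 4 each), a rise of 0.71 (SE 0.16, limma, adjusted p = 0.00294). Plaur, the urokinase receptor, rose by 0.87 (SE 0.26, limma, adjusted p = 0.0171), S100a10, a plasminogen receptor subunit, by 0.72 (SE 0.19, limma, adjusted p = 0.00809), Serping1, the C1 inhibitor that also blocks contact factors, by 0.60 (SE 0.15, limma, adjusted p = 0.00673), and Lrp1, a clearance receptor of protease complexes, by 0.34 (SE 0.11, limma, adjusted p = 0.0229).

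In the same list 3 genes fell after RBX in non-diabetic mice. Ggcx, the carboxylase that vitamin K-dependent factors such as factor VII and factor X need, fell by 0.87 (SE 0.31, limma, adjusted p = 0.037). Plgrkt, a plasminogen receptor, fell by 0.41 (SE 0.13, limma, adjusted p = 0.0191), and F2r, the main thrombin receptor, fell by 0.36 (SE 0.11, limma, adjusted p = 0.017). F2r was also the 1 pathway gene called for diabetes under RBX, where it rose by 0.41 (SE 0.11, limma, adjusted p = 0.0249) and averaged 26234 ± 3414 in diabetic RBX and 19638 ± 1719 in non-diabetic RBX mice (SD, n = 4 each). Both F2r results use the 4 non-diabetic RBX arrays. The F2r call for diabetes under RBX was lost with the cre signal, the Actb ratio or both as covariates. F2r for diabetes under RBX was lost without non-diabetic RBX mouse 1 or 4 or diabetic RBX mouse 1 or 3, and Ggcx without non-diabetic mouse 1, 2 or 4 or non-diabetic RBX mouse 4, where it was -0.51. Lrp1 was lost without non-diabetic mouse 4 or non-diabetic RBX mouse 2, Plaur without non-diabetic mouse 1 or non-diabetic RBX mouse 3, and Plgrkt without non-diabetic mouse 2 or non-diabetic RBX mouse 3 (adjusted p of 0.0504 to 0.0989). With the cre covariate Ggcx turned to 0.29 and S100a10 to -0.20.

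For diabetes without RBX, RBX in diabetic mice and the interaction, none of the 17 pathway genes was called by limma, against 0.652%, 0.0453% and 11.5% of all genes. An unadjusted p under 0.05 was reached by 4, 0 and 6 of the 17, against 15.2%, 9.19% and 27.9% of all genes. Pros1, encoding protein S, the cofactor of activated protein C, gave 0.22 for diabetes without RBX (SE 0.09, limma, adjusted p = 0.236). Mcfd2, which carries factors V and VIII out of the endoplasmic reticulum, gave -0.16 for RBX in diabetic mice (SE 0.08, limma, adjusted p = 0.544). Anxa5, which covers clot-promoting phospholipid, gave -0.27 for the interaction (SE 0.15, limma, adjusted p = 0.236), and F2rl2, another thrombin receptor, gave 0.24 for RBX in diabetic mice (SE 0.31, limma, adjusted p = 0.855).

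Markers of several cell types moved in the same comparisons as the 9 genes. Of all genes tested, 31.7% were called for RBX in non-diabetic mice, 16.5% as higher and 15.1% as lower. With the cre signal as a covariate no gene was called there. For RBX in non-diabetic mice, 7 of 8 endothelial markers rose (median log2 difference 0.85), as did 6 of 8 macrophage markers (0.70), 4 of 5 resident adventitial macrophage markers (0.90), 4 of 4 platelet and megakaryocyte markers (1.24) and 2 of 2 mesothelial markers (2.53). Of 7 smooth muscle markers 5 fell and 1 rose (-1.05), and of 5 peritoneal macrophage markers 3 fell and 1 rose (-0.50). Of 6 fibroblast markers 3 rose (0.36), of 3 white fat markers 1 rose (0.97) and of 2 blood cell markers 1 rose (0.41). Of 3 brown fat markers 0 were called (1.58). The summed signal of the endothelial markers was 37917 to 48342 in non-diabetic RBX and 22539 to 29624 in non-diabetic mice, without overlap. The summed signal of the platelet markers was 21403 to 36823 in non-diabetic RBX and 10079 to 15665 in non-diabetic mice, also without overlap, and Gp9 and Gp6 lay below the filter. The summed signal of the resident macrophage markers was 19743 to 40429 in non-diabetic RBX and 12110 to 15399 in non-diabetic mice, without overlap as well. The mesothelial markers summed to 3617 to 10087 in non-diabetic RBX and 653 to 2183 in non-diabetic mice, again without overlap. Msln, Wt1 and Krt19 of that list lay below the filter. Other sums did overlap. The macrophage markers summed to 234865 to 356117 in non-diabetic RBX and 169279 to 254526 in non-diabetic mice. The smooth muscle markers summed to 294099 to 455710 in non-diabetic RBX and 418291 to 457877 in non-diabetic mice, and the peritoneal macrophage markers to 42582 to 73449 and 64838 to 97080.

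The hepatocyte list, relevant because the liver is the main source of factor VII and factor X, had a summed signal of 1729 to 3711 in non-diabetic RBX and 904 to 1590 in non-diabetic mice. Its defining marker Alb lay below the filter, and Trf, the single member above it, rose by 1.71. For diabetes without RBX, 1 of 8 endothelial markers rose (median 0.56), 0 of 8 macrophage markers were called although all 8 were above 0 (0.44), and 1 of 5 resident macrophage markers rose (0.57). In that comparison 0.326% of all genes were called as higher. The part of these cell types in the differences of the 9 genes was not tested, and in whole aorta more cells of a type and more RNA per cell cannot be told apart.

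The array measures were also set against the genes inside the groups, as deviations of each mouse from its group mean over all 16 arrays. None of 18 relations of the 9 genes with the cre signal and the Actb ratio passed, among 54 relations tested in all. The smallest p of the 18 was that of F5 and the Actb ratio, with a within-group Pearson r of 0.70 (permutation p = 0.00688, adjusted p = 0.186), a Spearman rho of 0.65 (permutation p = 0.0144, adjusted p = 0.259), and an r of 0.50 without the 2 mice farthest on the ratio. For Plat and cre the within-group Pearson r was -0.72 (permutation p = 0.013, adjusted p = 0.204) with a Spearman rho of -0.67 (permutation p = 0.0267, adjusted p = 0.295), and r was -0.66 without the 2 mice farthest on cre. For Tfpi and cre r was 0.63 (permutation p = 0.0292, adjusted p = 0.225) with a rho of 0.58 (permutation p = 0.0491, adjusted p = 0.331), and r was 0.50 without those 2. In a fit with cre as a covariate none of the 11036 genes was called for RBX in non-diabetic mice, and with the Actb ratio 174 were, or 1.58%.

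**Figure D4:**
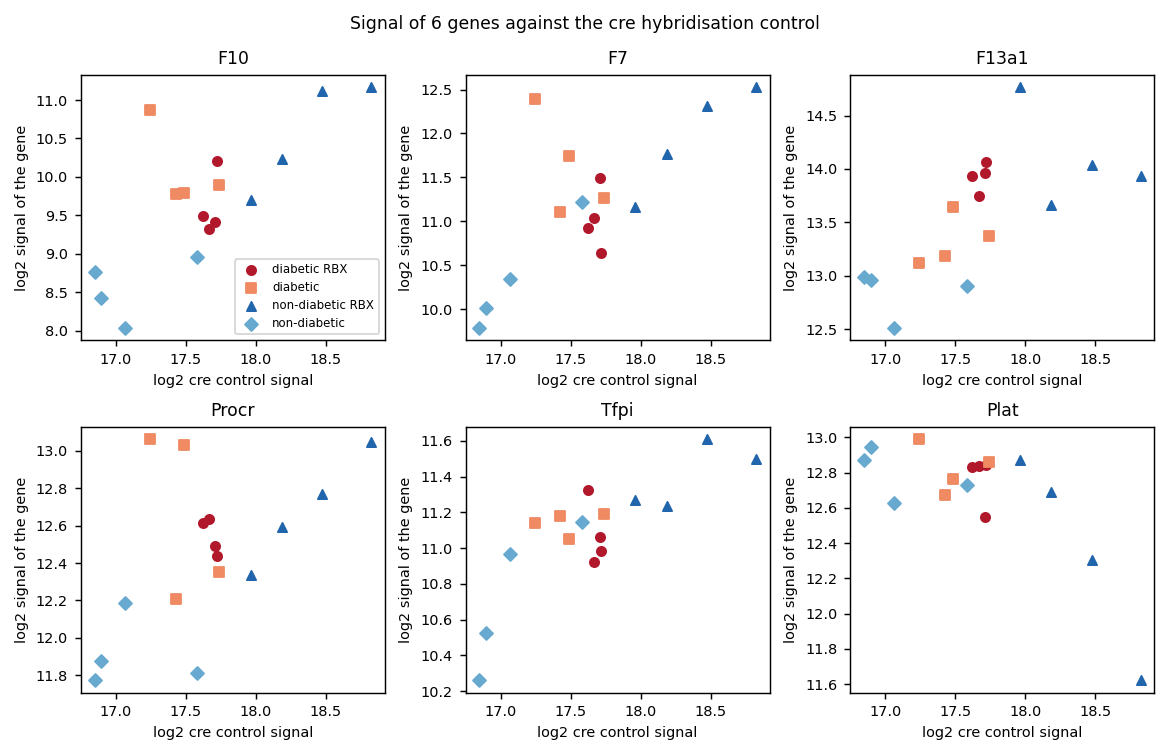
Log2 signal of 6 genes (vertical) against the log2 signal of the cre hybridisation control (horizontal), 1 point per mouse. The non-diabetic RBX mice lie at the right, between 17.96 and 18.82, and the non-diabetic mice at the left, between 16.85 and 17.58, so group and control signal run together.

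Among the 36 pairs of the 9 genes, 16 had a within-group correlation above 0, and only F7 and F3 passed after adjustment over the 54 relations. Mice with more F7 than their group had less F3, with a within-group r of -0.83 (permutation p = 0.00041, adjusted p = 0.0221) and rho of -0.88 (permutation p = 0.0006, adjusted p = 0.0324). The relation was -0.84 without the 2 mice farthest from the median. With the cre signal, F3 had a within-group r of -0.64 (permutation p = 0.0529, adjusted p = 0.26). For F7 and cre it was 0.58 (permutation p = 0.0655, adjusted p = 0.295). Neither passed, and the part of the cre signal in the relation of F7 and F3 was not tested. F7 and F10 had a within-group r of 0.59 (permutation p = 0.0465, adjusted p = 0.256) and a rho of 0.45 (permutation p = 0.142, adjusted p = 0.547), which did not pass, and r was 0.40 without the 2 mice farthest from the median.

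The genes most like each member were found by Pearson r of log2 signal over the 16 arrays, among the 11036 genes tested. For F7 they were Plin2, a lipid droplet coat protein, with r of 0.96 over all arrays and 0.96 within groups, Cd36, a receptor for oxidised lipoproteins and fatty acids (0.96 and 0.90), and Slc37a2, a sugar phosphate carrier (0.94 and 0.93). For F13a1 the nearest was Lyve1, a hyaluronan receptor (0.95 and 0.86), followed by H6pd (0.95 and 0.83). For F10 it was Litaf (0.92 and 0.78), for Procr Cfp, the complement regulator properdin (0.92 and 0.82), and the adhesion receptor Selp (0.92 and 0.80), and for Plat Rtn2 (0.92 and 0.90) and Sfrp2, a secreted Wnt antagonist (0.92 and 0.88). F3 was most like the chemokine gene Ccl11 (0.88 and 0.89) and Serpinf1 (0.86 and 0.87). For Thbd, Tfpi and F5 the nearest genes were Pcsk6 (0.84 and 0.87), Mcl1 (0.88 and 0.73) and Pcif1 (0.86 and 0.76). These genes were picked for their likeness and share arrays and scaling with the members, so the values are a description.

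**Figure D5:**
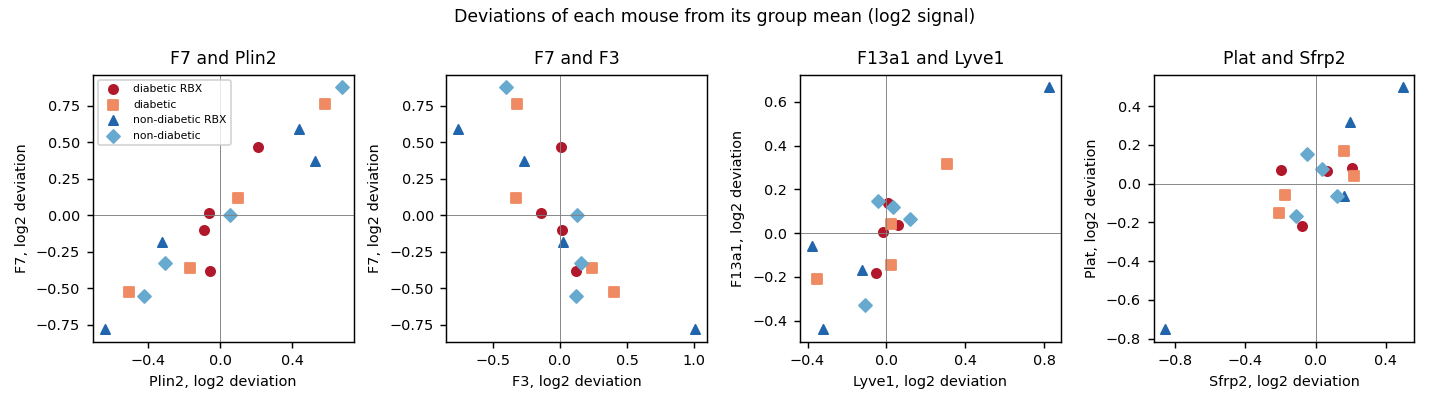
Log2 deviations of each mouse from its group mean for F7 with Plin2, F7 with F3, F13a1 with Lyve1 and Plat with Sfrp2, 1 point per mouse, 4 groups of 4. F7 runs with Plin2 (within-group r 0.96) and against F3 (-0.83), and in the Plat panel non-diabetic RBX mouse 4 lies far below the rest on both axes.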

How the data were processed

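Total RNA was extracted from whole aorta with Trizol, and biotinylated cRNA was made from 2 ug of it, per the labels' protocols. The deposited values are intensity on a linear scale from MAS5, per the submitters' processing notes, with a version and detection calls not given in the sources used here. Each array's trimmed mean (2% off each end) was 1500.01, so the authors' values had been scaled to a common mean, and a signal is read relative to it. Arrays have no read depth, and their number, 4 per group, limits the precision. Replicates are separate mice per the labels.

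Gene names came from GEO's platform annotation. 34945 probe sets had 1 symbol, 932 had several, 9160 were unnamed here, and 64 were Affymetrix controls, which were left out. Symbols were looked up in RefSeq genes of GRCm38.p6, which held 99.4% of these probe sets and changed 0. The log2 of each signal was used without an offset. Probe sets with a mean above the median of all (a signal of 383) were kept, and the brightest stood for its gene. limma 3.58.1 (R 4.3.3, data.table package 1.17.8) was fitted to all 16 arrays with 4 group means and an intensity trend, with two-sided p-values adjusted by Benjamini-Hochberg over 11036 genes and a threshold of 0.05. Diabetic mice were compared with non-diabetic mice without RBX and under RBX, and mice given RBX with untreated mice within each diabetes status. The interaction is the RBX difference among diabetic mice minus that among non-diabetic mice. On simulated data for diabetes without RBX, the fit recovered 82 of 100 genes changed by 1 on the log2 scale and 98 of 100 changed by 2 among 11036 genes, and called 9 unchanged ones. The simulated noise was normal and independent for each gene, with no effect shared by the genes of an array. These counts therefore check the fit and do not give its recovery on the real arrays. Correlations were tested over 100000 permutations within groups, two-sided (SciPy 1.17.1, NumPy 2.4.6, pandas 2.3.3, Python 3.11.15; plots with Matplotlib 3.10.9).

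The members and lists were chosen with earlier results of these data known. The rule named all 9 members, every other pathway gene that passed, up to 3 per role with the smallest p, and the 3 genes most like each member. Same-numbered mice of different groups were not treated as paired in the main fit. Over 24 pairs their deviations correlated by -0.14 to 0.18 (median 0.01), with 2 pairs over 0.1. Such values over all genes cannot decide whether a single gene follows the replicate number. With a replicate block the SE of F7 for diabetes without RBX was 0.22, against 0.33. Alternatives are given in the closing section. Detection calls and sequence beyond RefSeq start windows were not used here.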

Additional observations from a re-analysis of the deposited data

Results flagged for a closer look

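In 64 groups of 4 mice (16 probe sets in 4 groups), 5 held a mouse whose gap to the nearest other exceeded Dixon's critical value of 0.829 of the group's range, where chance gives about 1 in 20. F10 (1449305_at) of diabetic mouse 4 was 1871.5, against 879.5 to 950.2 in the other 3 diabetic mice. Without this mouse the F10 difference for diabetes without RBX was 1.27 and was not called. Plat (1415806_at) of diabetic RBX mouse 4 was 5986.1, below the other 3 mice of its group. Plat (1458553_at), a weak probe set, was 21.6 in diabetic RBX mouse 2. F3 of non-diabetic mouse 3 was 5983.1, and this mouse also had the highest F7 of its group, 2384.2. Tfpi (1438530_at) of diabetic RBX mouse 3 was 1606.

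The interaction of diabetes and RBX passed in limma for 4 genes: F10 (-2.48), F7 (-2.21), Procr (-0.89) and Tfpi (-0.75 on 1451791_at), all on the log2 scale and all negative. These differences draw on the non-diabetic RBX arrays, whose cre signal (17.96 to 18.82) lay above that of every other group. Their Actb ratio (1.67 to 2.51) lay above both groups without RBX but overlapped that of diabetic RBX mice (1.47 to 1.89). None of the 4 was called with either measure as a covariate. With the Actb ratio the interaction was -2.19 for F10 (limma, adjusted p = 0.0536), -1.997 for F7 (0.0744), -0.98 for Procr (0.108) and -0.61 for Tfpi (0.261). With cre it was -1.60 for F10 (limma, adjusted p = 0.347), -0.95 for F7 (0.552), -0.71 for Procr (0.49) and -0.16 for Tfpi (0.88).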

How the results depend on the processing

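Of 19 single-gene calls of the members and named pathway genes, 16 had the same sign under every alternative run. The exceptions were RBX differences in non-diabetic mice: Tfpi (-0.026 with the cre covariate), Ggcx (0.29 with cre, 0.053 with the Actb ratio, 0.44 with both) and S100a10 (-0.20 with cre and with both). Among the members, 1 gene was called for diabetes without RBX. That count was 0 under quantile normalization, no filter, the mean of probe sets, every probe set apart, no intensity trend, cre, the Actb ratio and both, 5 with array weights, 3 with the replicate block, and 4 without the non-diabetic RBX arrays (F10, F7, F13a1 and Procr). Of all genes, 10.9%, 1.54% and 3.55% were called in these 3 fits, against 0.652%. With the filter at the 70th percentile the count was 1, but the gene was Procr (limma, adjusted p = 0.0493), and F10 was below that filter. Leaving out 1 mouse gave 0 to 3. For diabetes under RBX (0) the replicate block gave 1, F7 (limma, adjusted p = 0.0196), where 7.42% of all genes were called. Leaving out 1 mouse gave 0 to 2 there. For RBX in non-diabetic mice (5) the mean of probe sets gave 3, where F10 fell below the filter, cre 0, the Actb ratio 1 and both 0, and leaving out 1 mouse 5 to 6. For the interaction (4) the mean of probe sets and no intensity trend each gave 2, cre, the Actb ratio and both 0, and leaving out 1 mouse 2 to 5. RBX in diabetic mice gave 0 members and 0 pathway genes throughout.

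Among the 17 other pathway genes, the count for diabetes under RBX (1) was 0 with the mean of probe sets, no intensity trend, cre, the Actb ratio, both, and only the groups compared, and 0 to 1 leaving out 1 mouse. For RBX in non-diabetic mice (8) it was 0 with cre, the Actb ratio and both, and 6 to 9 leaving out 1 mouse. For the interaction (0) it was 1 under quantile normalization, 3 with array weights and 1 with the replicate block, and 0 to 2 leaving out 1 mouse. For diabetes without RBX (0) array weights gave 2. The cause of these changes was not tested. The fit with both covariates and that without the non-diabetic RBX arrays were added after the data had been seen. No scaling moved the median of all genes by over 0.1. Weak probe sets, such as those of F10 below the filter, carry large errors.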
